A study of Mus musculus with 41 samples.

Results

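H3K27ac, the acetylation of lysine 27 of histone H3 that accompanies active promoters and enhancers, was compared between 2 populations of mouse macrophages by CUT&Tag, in which a transposase is brought to the mark by an antibody and leaves sequencing adapters in the DNA next to it. Bone marrow-derived macrophages (BMDM) came from C57BL/6 mice, as precursors flushed from femur and tibia and cultured in DMEM with macrophage colony-stimulating factor. Post-ischemia macrophages (PIM) came from C57BL/6 mice, as CD45+, CD11b+, F4/80+ and CD64+ cells sorted from the digested calf muscle of a limb whose femoral artery had been closed. By the study's methods the mice were young adult females, with the strain written there as C57Bl6/J. The methods add that BMDM were reseeded before harvest in DMEM with serum and antibiotics, and list no colony-stimulating factor for that step. PIM were taken 2 days after the onset of ischemia. Both libraries were made from nuclei with the same H3K27ac antibody and with sodium butyrate, a deacetylase inhibitor, in the buffers, and both carry the treatment label control. Each cell type had 1 library and 1 peak list, so the spread between animals or cultures could not be measured, no difference was tested, and the cell type cannot be told apart from culture against tissue, the sort, the label tag (antibody for BMDM, histone for PIM) or the library itself. A weak peak in every cell and a strong peak in a part of the cells cannot be told apart either. All intervals are 95% intervals and cover counting error only.

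The 2 lists held 12671 and 24257 peaks on chromosomes 1 to 19. Merging them gave 23685 regions. A region with peaks of 1 list was called BMDM-only (1800 regions) or PIM-only (11040 regions), and a region in which peaks of both lists overlapped by 1 bp or more was called shared (10845 regions). A region was a promoter region if it reached within 2000 bp of a transcription start site (TSS) of any annotated transcript, and distal otherwise. These 2 samples belong to a series of 41 samples with 24 peak lists, from which 8 further lists were read at the same regions.

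Macrophages take up dying cells, present antigen and secrete cytokines. Their shared program is set by lineage factors such as PU.1 and the C/EBP proteins, which bind enhancers together with factors that respond to signals, among them AP-1, NF-kB and the interferon regulatory factors (IRF). Macrophages in a tissue take on enhancers that depend on their surroundings, and the same gene can be served by different enhancers in culture and in vivo. H3K27ac marks which of these elements are in use, and acetylation at a promoter is common to most expressed genes.

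Windows of 200 bases were read from mm10 around the block of maximum signal of a peak, on the plus strand. The first 3 given here are among the strongest distal regions of their class. They are the first BMDM-only and the second PIM-only region by total signal, and the first shared region by the sum of its ranks in both lists. The others were chosen after their values had been seen, as BMDM-only regions with a match to the PU.1 motif (GAGGAAGT) and PIM-only regions with a match to the AP-1 motif (TGANTCA). Capitals mark matches on either strand to the motifs of PU.1, AP-1, RUNX (TGTGGT) and IRF (GAAANNGAA). Matches to the other motifs searched were left in lower case, among them a CCAAT box in the Sgk1 window and an NF-kB match in the Zbtb7a window.
BMDM-only, nearest gene Klf6, chr13:5779472-5779671: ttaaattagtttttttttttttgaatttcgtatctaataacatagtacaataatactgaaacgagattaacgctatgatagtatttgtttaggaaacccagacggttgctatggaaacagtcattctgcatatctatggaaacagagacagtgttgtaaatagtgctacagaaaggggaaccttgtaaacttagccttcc
PIM-only, in an intron of Msl2, chr9:101097649-101097848: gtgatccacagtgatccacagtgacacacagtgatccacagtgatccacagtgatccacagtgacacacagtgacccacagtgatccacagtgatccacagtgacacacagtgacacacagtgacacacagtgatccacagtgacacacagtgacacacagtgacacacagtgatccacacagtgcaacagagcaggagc
shared, nearest gene Ccr1, chr9:123928210-123928409: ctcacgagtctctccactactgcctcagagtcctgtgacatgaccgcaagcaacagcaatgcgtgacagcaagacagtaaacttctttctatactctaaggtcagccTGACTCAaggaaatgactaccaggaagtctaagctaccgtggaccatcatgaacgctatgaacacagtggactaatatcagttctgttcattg
BMDM-only, in an intron near Fsip1, chr2:118295569-118295768: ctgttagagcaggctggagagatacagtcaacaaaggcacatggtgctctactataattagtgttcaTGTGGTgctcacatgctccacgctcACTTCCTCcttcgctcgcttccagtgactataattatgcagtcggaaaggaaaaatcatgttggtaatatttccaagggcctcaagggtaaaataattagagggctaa
BMDM-only, in an intron near Sgk1, chr10:21889482-21889681: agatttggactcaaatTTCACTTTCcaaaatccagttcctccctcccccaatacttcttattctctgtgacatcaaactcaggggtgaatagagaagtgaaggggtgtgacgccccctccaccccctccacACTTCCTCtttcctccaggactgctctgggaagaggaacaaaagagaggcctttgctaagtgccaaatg
PIM-only, in an intron near Zbtb7a, chr10:81145770-81145969: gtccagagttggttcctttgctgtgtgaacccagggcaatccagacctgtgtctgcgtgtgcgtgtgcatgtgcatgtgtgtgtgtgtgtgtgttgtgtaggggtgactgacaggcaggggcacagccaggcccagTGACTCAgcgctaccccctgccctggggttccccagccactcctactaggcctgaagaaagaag
PIM-only, in an intron near Map6, chr7:99304999-99305198: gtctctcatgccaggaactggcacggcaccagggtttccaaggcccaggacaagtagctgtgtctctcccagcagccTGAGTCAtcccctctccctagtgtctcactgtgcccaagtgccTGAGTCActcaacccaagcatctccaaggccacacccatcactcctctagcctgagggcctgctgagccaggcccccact

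The Klf6 window, 81910 bp from the TSS of this gene, holds none of the motifs, and its region ranked 973 of the 12671 BMDM peaks by total signal. The Msl2 window is a tandem repeat, with 68.5% of its bases masked as repeat in the reference, and its region ranked 42 of the 24257 PIM peaks. The Ccr1 window holds an AP-1 match and lies 40382 bp from the TSS, in a region of 10697 bp that ranked 10 in BMDM and 17 in PIM. Ccr1 encodes a receptor for inflammatory chemokines.

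The PIM list was longer and its peaks were narrower. BMDM peaks had a median width of 2142 bp and covered 32.3 Mb, against 959 bp and 26.97 Mb in PIM. The signal summed over all peaks, not scaled for depth, was 798.3 Mb in BMDM and 822.6 Mb in PIM (fragment coverage added over all bases of the peaks), which is 24.7 and 30.5 fragments per base within peaks. In the shared promoter regions the BMDM peaks covered more bases than the PIM peaks in 89.1% of cases, and in the shared distal regions in 93.8%. Several PIM peaks lay in 1 region in 17.2% of the shared distal regions, against 0.0272% with several BMDM peaks. Because of the missing scaling these levels describe each list on its own, and a peak is described below by its rank within its own list, where rank 1 is the largest total signal, and by that rank in percent of the list.

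Most BMDM peaks had a counterpart in PIM. Of the BMDM peaks 85.8% (85.2 to 86.4%) overlapped a PIM peak, and of the PIM peaks 54.5% (53.9 to 55.1%) overlapped a BMDM peak. With the PIM list held to the BMDM number of peaks the order turned, at 66.7% and 73.9%. Promoters were shared more often than distal regions. Of 12641 promoter regions, 7167 (56.7%) were shared, 5006 (39.6%) were PIM-only and 468 (3.70%) were BMDM-only. Of 11044 distal regions, 3678 (33.3%) were shared, 6034 (54.6%) were PIM-only and 1332 (12.1%) were BMDM-only. The shared fraction was 23.4 percentage points higher at promoters (22.2 to 24.6).

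At distal sites the order of the classes depended on how the lists were limited. With the PIM list alone held to the BMDM number of peaks, distal regions were BMDM-only in 2846 cases and PIM-only in 1256. When each list was held to its 5000 strongest peaks by total signal, distal regions were BMDM-only in 1094 cases, PIM-only in 381 and shared in 543, whereas promoter regions were BMDM-only in 965 cases, PIM-only in 1484 and shared in 2393. The 5000th peak had a total signal of 52860 in BMDM and 46763 in PIM, and the next peak 52846 and 46759. Ranking by maximum signal gave 1237 BMDM-only and 600 PIM-only distal regions. In the full lists, promoters included, a strong peak was seldom without a partner. No PIM peak overlapped 201 of the 5000 strongest BMDM peaks (4.02%), and 417 of the 5000 strongest PIM peaks (8.34%) overlapped no BMDM peak. Among the 1000 strongest, 6 BMDM and 24 PIM peaks had none. At distal sites, regions with a strong peak and no peak of the other full list numbered 133 for BMDM and 157 for PIM, beside the 1094 and 381 above. The peaks confined to 1 full list were weaker than the shared ones, with a median total signal of 27954.5 in BMDM-only distal regions against 43961 for BMDM signal in shared ones, and 14378.5 in PIM-only distal regions against 28127 for PIM signal in shared ones.

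**Figure D1:**
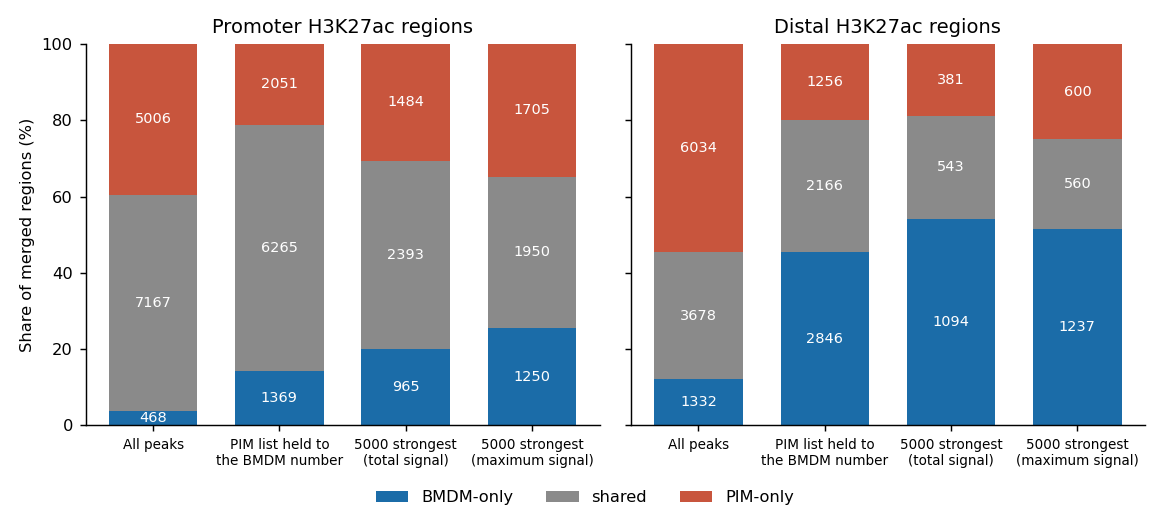
Share of merged regions in each class (y axis, %), for promoter regions (left) and distal regions (right), under 4 ways to limit the lists (x axis). Numbers in the bars are regions. In the full lists PIM-only regions outnumber BMDM-only ones at promoters and at distal sites, and among the 5000 strongest peaks of each list BMDM-only regions outnumber PIM-only ones at distal sites (1094 against 381) and not at promoters (965 against 1484).

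The distal classes differed in position and composition. Of the 1332 BMDM-only distal regions 666 lay outside coding genes and 636 in introns, and of the 6034 PIM-only ones 2564 (42.5%) and 3277 (54.3%). The median distance to the nearest coding TSS was 20931 bp for BMDM-only, 16683 bp for PIM-only and 17705 bp for shared distal regions. Windows of 500 bases around the strongest block had a median GC content of 44.6% in BMDM-only, 49.0% in PIM-only and 48.4% (centred on the BMDM peak) or 48.8% (centred on the PIM peak) in shared distal regions. More than 50% of the bases were masked as repeat in 3.45% of BMDM-only and 16.1% of PIM-only windows.

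Motif letters differed in opposite directions between the distal classes. The AP-1 motif TGANTCA, bound by Fos and Jun dimers, was present in 27.9% (25.6 to 30.4%) of the BMDM-only and 38.9% (37.7 to 40.1%) of the PIM-only windows, a difference of -10.95 percentage points (-13.60 to -8.20). The PU.1 motif GAGGAAGT went the other way, with 17.4% (15.5 to 19.5%) of BMDM-only and 8.95% (8.25 to 9.70%) of PIM-only windows, a difference of 8.47 points (6.39 to 10.7). Shared regions held AP-1 matches in 41.3% (BMDM centre) and 43.6% (PIM centre) and PU.1 matches in 15.9% and 14.4%, and all distal regions together in 38.4% and 12.3%. Hence BMDM-only regions stood apart from shared ones in AP-1 matches, and PIM-only regions in PU.1 matches. Windows of distal H3K27ac peaks of gastrocnemius muscle (GAS) outside both macrophage lists held AP-1 matches in 15.5% and PU.1 matches in 2.99%.

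Both differences were present among windows of matched GC content and among strong peaks. Within windows of 45 to 50% GC the AP-1 difference was -18.95 points (-23.2 to -14.4) and the PU.1 difference 9.46 points (5.91 to 13.5). Between the 1094 BMDM-only and 381 PIM-only distal regions of the 5000 strongest peaks they were -8.36 points (-14.1 to -2.59) and 9.82 points (6.14 to 13.01). Leaving out windows masked over more than 50% of their bases gave AP-1 matches in 28.2% of BMDM-only and 43.9% of PIM-only windows.

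Motifs of other macrophage factors were also more frequent in BMDM-only distal windows. The C/EBP motif TTGCNNAA was found in 29.7% of BMDM-only and 18.7% of PIM-only windows (22.1% of all distal windows), the IRF motif GAAANNGAA in 22.3% and 12.4% (15.6% of all), and the NF-kB motif in 10.6% and 6.35% (8.31% of all). The C/EBP difference was 11.04 points, 9.97 within windows of 45 to 50% GC and 5.89 (0.815 to 10.57) among the 5000 strongest peaks. In the same order it was 9.87, 5.05 (1.42 to 9.13) and 9.85 points for IRF, and 4.24, 5.40 and 5.62 points for NF-kB. The RUNX motif TGTGGT was found in 42.9% and 39.4% (40.6% of all), a difference of 3.44 points (0.531 to 6.38), which was 2.07 points (-2.88 to 7.09) within windows of 45 to 50% GC. The HIF motif TACGTG, read by the hypoxia-inducible factors, was found in 5.18% of BMDM-only and 6.17% of PIM-only windows (5.99% of all), a difference of -0.985 points (-2.23 to 0.461). Among the 5000 strongest peaks it was found in 6.67% of BMDM-only and 3.68% of PIM-only distal windows, a difference in the other direction of 3.00 points (0.255 to 5.20). The CAGCTG E-box, read by myogenic factors among others, was found in 24.3% and 28.04% (28.5% of all), a difference of -3.79 points (-6.30 to -1.17), which was 3.00 points (-1.33 to 7.63) within windows of 45 to 50% GC and 0.0931 points (-5.31 to 5.20) among the 5000 strongest peaks. A match says only that these letters are present.

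At promoter regions the classes differed more in base composition, and also in position. The median distance of the window centre to the nearest coding TSS was 1977.5 bp in BMDM-only promoter regions, 117.5 bp in PIM-only and 128 bp in shared ones, and its part in the composition was not tested. The GC box CCCCGCCC was found in 4.70% of the BMDM-only and 27.7% of the PIM-only promoter windows, which had a median GC content of 46.4% and 58.7%, and within windows of 45 to 50% GC the difference was 0.00494 points (-2.44 to 4.16). AP-1 letters were found in 19.02% and 17.9% of promoter windows, and within 45 to 50% GC the difference was -20.5 points (-26.8 to -13.1). Without the GC limit the difference was 1.10 points (-2.37 to 5.04) in the full lists and 6.90 points (3.88 to 10.00) among the 5000 strongest peaks. Within 45 to 50% GC these strong windows held AP-1 letters in 27.9% of BMDM-only and 47.5% of PIM-only cases, so the sign went with the GC limit.

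**Figure D2:**
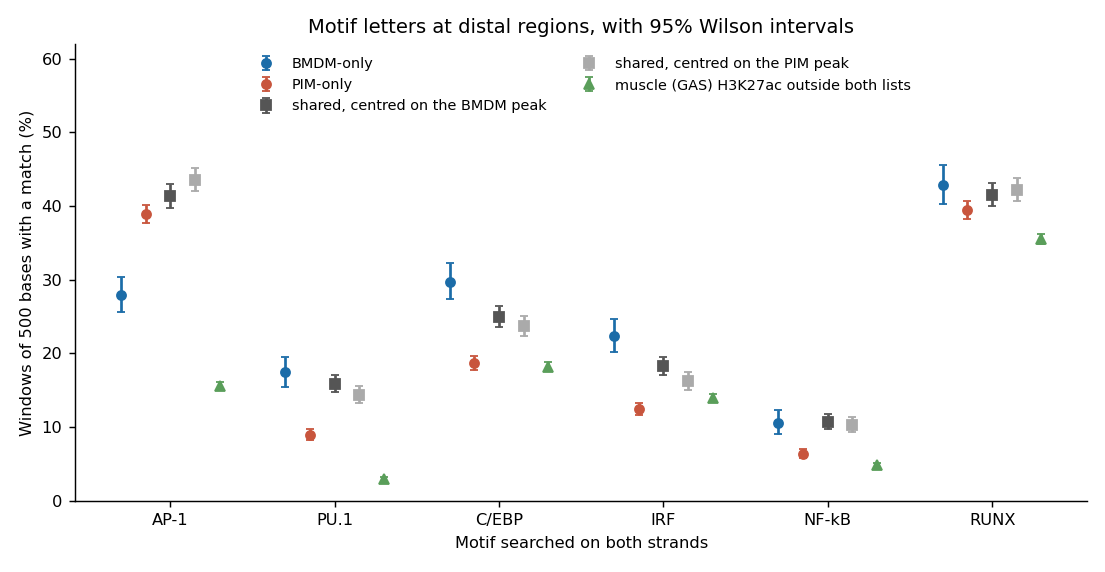
Share of 500-base windows with at least 1 match (y axis, %) for 6 motifs (x axis) in BMDM-only, PIM-only and shared distal regions, and in distal muscle regions outside both macrophage lists. Bars are 95% Wilson intervals, which cover counting error only. AP-1 letters are in 27.9% of BMDM-only and 38.9% of PIM-only windows, and PU.1 letters in 17.4% and 8.95%.

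Lists of other marks, which played no part in forming the classes, were read at the same distal regions. A region counted as overlapped from 1 bp on. The median region width was 1805 bp for BMDM-only, 785 bp for PIM-only and 2204 bp for shared distal regions. The part of width in the overlap shares below was not tested. H3K18la is the lactylation of lysine 18 of histone H3, H3K4me3 a mark of active promoters and H3K27me3 a mark of repressed chromatin. PIM-only distal regions overlapped a PIM H3K18la peak in 80.4% of cases (79.4 to 81.4%) and a BMDM H3K18la peak in 34.7% (33.5 to 35.9%), a difference of 45.7 points (44.1 to 47.3). The difference was 16.3 points with the 5000 strongest peaks of each list by total signal and 21.2 points by maximum signal. Over all 11044 distal regions the shares were 86.5% and 58.5%, so PIM-only regions lay below all distal regions for both lists, and further below for the BMDM list. BMDM-only distal regions overlapped BMDM H3K18la in 79.8% (77.6 to 81.9%) and PIM H3K18la in 80.9% (78.7 to 83.0%), a difference of -1.13 points (-4.14 to 1.89). Within this class the BMDM list was thus not ahead. Against all distal regions, however, BMDM-only regions lay above the 58.5% of the BMDM list and below the 86.5% of the PIM list. Of these, 910 of 1332 BMDM-only distal regions (68.3%) carried H3K18la in both cell types, 153 in BMDM alone, 168 in PIM alone and 101 in neither. Of the 6034 PIM-only regions, 2020 (33.5%) carried H3K18la in both, 2834 (47.0%) in PIM alone, 75 in BMDM alone and 1105 in neither. The PIM H3K18la list was made from 2 libraries and covered 68.0 Mb, whereas the BMDM one was made from 1 library and covered 22.3 Mb, and the part of this gap in the difference was not tested.

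Shared distal regions carried H3K18la in BMDM in 89.7% and in PIM in 98.5% of cases, and PIM H3K4me3 in 80.1%, against 38.4% of BMDM-only and 40.0% of PIM-only regions. H3K27me3 was rare in all classes, at most 5.50% for the PIM list and 2.64% for the BMDM list, both in PIM-only regions. In the 157 PIM-only distal regions with 1 of the 5000 strongest PIM peaks, however, the shares were 14.6% (9.96 to 21.0%) and 8.92% (5.39 to 14.4%). Of these 157 regions, 34 (21.7%) had windows masked as repeat over more than 50% of their bases. The share was 2.26% for the 133 strong BMDM-only regions. The part of repeats in the overlaps of this set, here and below, was not tested.

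Since PIM were sorted out of muscle, overlap with H3K27ac of whole gastrocnemius muscle was read beside the classes. GAS peaks overlapped 37.8% of PIM-only, 29.95% of BMDM-only and 44.5% of shared distal regions (39.1% of all), and the PIM-only share was 7.86 points above the BMDM-only share (5.07 to 10.6). For adipocytes (ADIPO) the shares were 17.6%, 11.9% and 25.1% (19.4% of all), and for embryonic stem cells in serum 6.78%, 3.08% and 10.1% (7.43% of all). In each of these lists, muscle included, the PIM-only share was above the BMDM-only share and below that of shared and of all distal regions. Among strong peaks PIM-only and shared regions were not set apart in muscle and adipocytes. The same 157 PIM-only regions overlapped GAS in 62.4% (54.6 to 69.6%) and ADIPO in 47.1% (39.5 to 54.9%) of cases, against 58.75% (54.6 to 62.8%) and 43.65% (39.5 to 47.9%) of the 543 regions shared among the strongest of both lists, with intervals that overlap, and 33.8% and 13.5% of the 133 BMDM-only ones. For stem cells the shares were 10.8%, 19.9% and 3.01%, in the same order as over all regions.

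**Figure D3:**
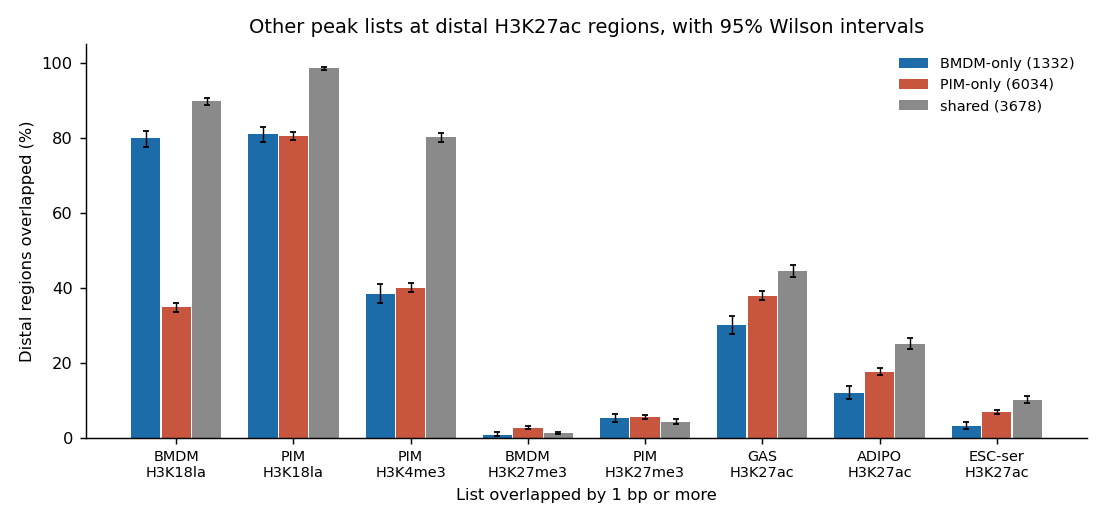
Share of distal H3K27ac regions of each class (y axis, %) that overlap a peak of 8 other lists (x axis, cell type and mark). Bars are 95% Wilson intervals. PIM-only regions overlap PIM H3K18la in 80.4% and BMDM H3K18la in 34.7% of cases, while BMDM-only regions overlap them in 80.9% and 79.8%.

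The strongest PIM-only distal regions were called in more of the other lists than the strongest BMDM-only ones. The 5 strongest BMDM-only distal regions lay nearest to Klf6, Macc1, Tle1 (178657 bp away), Pde7b and Papolg, ranked from 973 to 1418, and were held by 2 to 4 of the other 8 lists. The 5 strongest PIM-only regions lay nearest to 2010315B03Rik, Msl2, Aadac, Mepe and Zbtb7a, ranked from 15 to 262, and were held by 4 to 8 of the other lists. The Mepe region was called in all 8, H3K27me3 included. The 5 strongest shared distal regions, by the sum of their ranks in both lists, lay nearest to Ccr1, Chl1, Rab10 (200003 bp away), Ahnak and Fgf14 (124559 bp away). Those at Chl1, Rab10 and Fgf14 were called in all 8 lists. Among all distal regions, 5 PIM-only, 15 shared and 0 of 1332 BMDM-only regions were called in every one of the other 8 lists. Among the next BMDM-only regions were 1 in an intron of Fyb (rank 1436), which encodes an adaptor of integrin signalling in leukocytes, and 1 that lay 104414 bp from the TSS of Igf1 (rank 1679). Both carried H3K18la in BMDM and in PIM.

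Single loci collected several distal regions of 1 class, most of them beside regions of another class. Of the 20807 coding genes on chromosomes 1 to 19, 932 (4.48%) were the nearest gene, within 100 kb, of at least 1 BMDM-only distal region and 3132 (15.1%) of at least 1 PIM-only region. Map4k3, a kinase upstream of mTORC1, had the most BMDM-only regions, with 6, beside 2 PIM-only and 1 shared. It was followed by Asph, Abca1 and Gab2 with 5 each, and by F830045P16Rik, Elmo1, Hnrnpa3, Itga9 and Ust with 4 each and Klf6 with 3. Elmo1 also had 6 PIM-only and 7 shared regions, Itga9 3 and 2, Klf6 2 and 5, Abca1 2 and 4, Asph 1 and 3, Gab2 1 and 0, and Ust 1 and 0. F830045P16Rik and Hnrnpa3 had 1 shared region each and no PIM-only one. Abca1 exports cholesterol to apolipoproteins, Gab2 is an adaptor of growth factor and cytokine receptors and Elmo1 acts in the uptake of apoptotic cells. The 5 BMDM-only regions of Abca1 ranked between 7584 and 10754, all 5 carried H3K18la in BMDM and in PIM, and the strongest distal region at this gene was shared (rank 938 in BMDM and 9840 in PIM).

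The PIM-only regions were more numerous at single genes. Cmip had 16, Etv6 15, Elk3 14, Itpr1 13, Scaf8, Sept9, Cux1 and Notch2 12 each, and Foxp1 and Med13l 11 each. Etv6 and Elk3 are ETS family repressors, and Cux1, Notch2 and Foxp1 act in transcription or signalling in many cell types. All 10 had 0 BMDM-only regions, and 0 (Scaf8 and Sept9) to 10 (Etv6) shared ones. Of the 15 PIM-only regions at Etv6, 14 were intronic, all 15 carried PIM H3K18la and 1 carried BMDM H3K18la. Of the 14 at Elk3, 13 carried PIM H3K18la and 5 BMDM H3K18la.

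Promoters were then read gene by gene. A coding gene was called if a peak overlapped 2000 bp on either side of any of its TSSs. Both lists called 7089 genes (34.1%), PIM alone 3249 (15.6%), BMDM alone 160 (0.769%) and neither 10309 (49.55%). Within the 5000 strongest peaks of each list the numbers were 2605 (12.5%), 1534 (7.37%) and 847 (4.07%), and by maximum signal 1761 genes (8.46%) were PIM only and 1154 (5.55%) BMDM only. Promoters called in 1 full list were weaker than those called in both. Their median rank in percent of the list was 72.7 for BMDM only and 51.3 for PIM only, against 41.0 and 18.2 for genes called in both. Of the 160 BMDM-only genes, 29 had a promoter peak that met a PIM peak outside the promoter window, against 5 of the 3249 PIM-only genes.

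PIM-only promoters were called in other tissues more often than all promoters and less often than those shared with BMDM. Of the 3249 genes, 67.7% carried GAS H3K27ac, 66.7% ADIPO H3K27ac and 58.2% stem cell H3K27ac. The shares were 48.8%, 47.0% and 41.4% over all coding genes, and 83.9%, 86.8% and 75.95% over genes called in both. PIM H3K4me3 was called at 96.6% of the PIM-only genes (60.2% of all coding genes and 99.7% of those called in both). BMDM H3K18la was called at 8.96% of them (18.99% of all and 48.1% of those called in both) and PIM H3K18la at 44.8% (38.6% and 82.3%). Of the 160 BMDM-only genes, 129 (80.6%) carried PIM H3K4me3, 72 GAS H3K27ac and 48 stem cell H3K27ac.

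The strongest promoters confined to 1 list were few. A gene with a promoter peak among the 5000 strongest of its list and no peak of the other full list occurred 31 times for BMDM and 227 times for PIM. Of the 31, however, 18 had a promoter peak that met a PIM peak outside the promoter window, which leaves 13 that met none, against 2 and 225 of the 227. The 10 BMDM genes with the largest promoter signal were Igf2r, 6430531B16Rik, Cdk18, Rpl9-ps1, Sept4, Ccdc63, Olfr111, Slc35g3, Cd74 and Wdr63. Of these, Cdk18, Olfr111, Cd74 and Wdr63 had a peak that met no PIM peak anywhere. The peak at Rpl9-ps1 (chr11:83647440-83651805) also covered the promoter of the chemokine gene Ccl3, where PIM had a peak of rank 9327. Igf2r, the receptor that carries mannose 6-phosphate tagged enzymes to lysosomes, had a BMDM peak of 8737 bp at rank 73, which met a PIM peak outside the promoter window. The 10 PIM genes were Sgms2, Mroh2a, Limk1, Thada, F13a1, Atp2b4, Lsm11, Dnajc11, Sdf2l1 and Dtx4, with peaks that met no BMDM peak. Sgms2, a sphingomyelin synthase, ranked 457 and had 3 PIM-only distal regions. F13a1, which encodes the A subunit of coagulation factor XIII and is found in tissue-resident macrophages, ranked 832.

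Genes of macrophage identity were mostly called in both lists, a check of the label macrophage in both samples that cannot tell which list is which. Of 20 such genes 18 were called in both (34.1% of all coding genes were), Ctss in PIM only and Cx3cr1 in neither, and the GAS list called 11 of the 20. Spi1, which encodes PU.1, ranked 45 in BMDM and 101 in PIM, Csf1r, the receptor of macrophage colony-stimulating factor, ranked 48 and 182, and Cd68 ranked 172 and 277. These ranks all lie within the strongest 1.36% of either list. The ranks of other members differed. Tyrobp, a signalling adaptor, ranked 9 in BMDM and 6271 in PIM. Cebpb, a C/EBP factor induced in inflammation, ranked 6777 in BMDM and 433 in PIM. Adgre1, which encodes the sorted antigen F4/80, ranked 6096 (48.1% of the list) and 3907 (16.1%).

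Markers of other cells that the muscle digest or the culture could hold were largely uncalled, where 49.55% of all coding genes were in neither list, 34.1% in both and 15.6% in PIM only. Of 16 skeletal muscle genes, 15 were in neither list and Mylpf was in both, whereas the GAS list called all 16. None of 10 fibroblast genes was called. Of 10 endothelial and mural genes, Cdh5 and Pecam1 were called in both and Kdr in BMDM only, and of 6 muscle stem cell genes Sdc4 alone, in both. Of 14 neutrophil genes, Csf3r was called in both and Cebpe, Mmp9 and S100a8 in PIM only, a share of 21.4% near that of all genes, with ranks from 17406 to 21270 of 24257, while Mpo, Elane, Ly6g and S100a9 were in neither. Of 15 T, NK and B cell genes 2 (Cd3d and Ms4a1) were called in both, of 10 dendritic cell genes Itgax in both and Clec9a in BMDM only, and of 11 erythroid and mast cell genes Klf1 in PIM only. These calls are of H3K27ac alone. Of the 14 neutrophil genes 9 carried PIM H3K18la and 5 BMDM H3K18la, against 38.6% and 18.99% of all coding genes. For the 10 dendritic cell genes the numbers were 4 and 2. In each of the other lists of markers 0 to 3 genes carried PIM H3K18la.

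Genes of tissue-resident macrophages were divided. Of 15 such genes, 6 were called in both lists, 4 in PIM only, 0 in BMDM only and 5 in neither, where 34.1% of all coding genes were called in both, 15.6% in PIM only and 0.769% in BMDM only. At that share of BMDM-only genes a count of 0 among 15 is no result about the list. The 4 were F13a1 (rank 832), Mrc1 (4122), Cbr2 (15709) and Cd163 (17834). Mrc1 encodes the mannose receptor and Cd163 the haemoglobin scavenger receptor. The F13a1 peak covered chr13:37046457-37050190 and carried PIM H3K18la without BMDM H3K18la, and the gene was also nearest to 7 PIM-only distal regions, of which 6 carried PIM H3K18la and 2 BMDM H3K18la. Mrc1 had BMDM H3K18la and PIM H3K18la at its promoter, so that its promoter was not without active marks in BMDM. Complement genes showed the reverse order. C1qb ranked 536 in BMDM (4.23% of the list) and 11528 in PIM (47.5%), C1qc 663 (5.23%) and 9130 (37.6%), and Selenop, a selenium carrier, 1654 (13.1%) and 14258 (58.8%). The list therefore had no single direction.

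Promoters of the 2 strongest PIM-only members are given from RefSeq (GRCm38.p6, 300 bases around the TSS, in the direction of the gene). RefSeq has 2 promoters for F13a1. The one given lies inside the PIM peak, and the other (chr13:37050195-37050494), which begins beyond the end of the peak, holds a CCAAT box and no PU.1 match. Capitals mark a PU.1 match in the first and a CCAAT box in the second, motifs found in 3.17% and 38.4% of 15687 promoters of the same length.
F13a1, chr13:37049164-37049463, minus strand: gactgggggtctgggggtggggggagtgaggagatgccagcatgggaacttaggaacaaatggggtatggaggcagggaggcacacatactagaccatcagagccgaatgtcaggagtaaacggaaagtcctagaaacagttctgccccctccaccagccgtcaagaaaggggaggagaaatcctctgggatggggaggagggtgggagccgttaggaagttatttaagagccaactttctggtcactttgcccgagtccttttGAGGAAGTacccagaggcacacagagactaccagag
Mrc1, chr2:14229164-14229463, plus strand: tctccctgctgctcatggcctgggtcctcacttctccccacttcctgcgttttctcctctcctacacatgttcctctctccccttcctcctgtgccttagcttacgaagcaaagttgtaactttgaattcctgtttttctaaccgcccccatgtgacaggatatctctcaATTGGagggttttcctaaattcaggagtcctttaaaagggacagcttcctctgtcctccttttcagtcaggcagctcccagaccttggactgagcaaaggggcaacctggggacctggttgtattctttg

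Genes of repair macrophages were mostly called in both lists (16 of 20, against 34.1% of all coding genes), with Mmp12 in BMDM only. Their ranks diverged in both directions. Tgfbi, a matrix protein induced by TGF-beta, ranked 127 in PIM (0.524% of the list), with a peak of 7049 bp, and 11515 in BMDM (90.9%), with a peak of 2453 bp. It was nearest to 5 PIM-only and 1 shared distal region. Thbs1 ranked 3358 in PIM (13.8%) and 8879 in BMDM (70.1%), and the haem oxygenase gene Hmox1 2560 (10.6%) and 5783 (45.6%). In contrast, Igf1, a growth factor for muscle, ranked 640 in BMDM (5.05%) and 19028 in PIM (78.4%), and Gpnmb 594 (4.69%) and 10686 (44.1%). With the 5000 strongest peaks, 5 of the 20 genes were BMDM only and 3 PIM only, against 4.07% and 7.37% of all coding genes.

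Inflammatory cytokine and enzyme genes ranked higher in BMDM. Of 20 genes, 15 were called in both full lists, 0 in 1 list only and 5 (Il12b, Il1a, Il6, Nos2 and Saa3) in neither. With the 5000 strongest peaks 7 were BMDM only (Cd40, Cd80, Clec4e, Il18, Il1b, Osm and Slc7a11), 3 both and 0 PIM only, and by maximum signal 5 were BMDM only and 0 PIM only. Among all coding genes these calls were made for 4.07% and 5.55% (BMDM only) and for 7.37% and 8.46% (PIM only). Il1b, the gene of interleukin-1 beta, ranked 1501 in BMDM (11.8% of the list) and 15141 in PIM (62.4%). Nlrp3, the inflammasome sensor that leads to its processing, ranked 53 (0.418%) and 1582 (6.52%). The median rank of the called genes was 23.7% of the list in BMDM and 30.2% in PIM, against 41.7% and 26.8% for all coding genes called. Tnf ranked 1362 (10.7%) and 1442 (5.95%) and was thus high in both lists. Ptgs2, which encodes cyclooxygenase-2, went the other way, at 10576 (83.5%) and 8310 (34.3%).

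Genes of NF-kB and its feedback were called in both lists without exception (20 of 20), and 16 of them lay among the 5000 strongest peaks of both, against 34.1% and 12.5% of all coding genes. Zc3h12a, an RNase that ends cytokine messages, ranked 44 in BMDM and 229 in PIM, and Nfkbia, the inhibitor of NF-kB, 188 and 281. Cd83 differed most in position, with rank 72 in BMDM (0.568%) and 9629 in PIM (39.7%). AP-1 and immediate early genes were also called in both more often than all genes, in 17 of 20 cases, in PIM only for Batf and Fosl1 and in neither for Batf3. Junb ranked 3 in BMDM and 31 in PIM, and Jun 106 and 50. Zfp36, which destabilises cytokine messages, ranked 2 and 47.

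Chemokine genes were divided. Of 19 genes, 8 were called in both, 5 in PIM only (Ccl2, Ccl7, Cxcl1, Cxcl3 and Cxcl10, where 15.6% of all coding genes were PIM only) and 6 in neither. Ccl2 and Ccl7, which attract monocytes, ranked 7021 and 9531 in PIM, and Cxcl3, which attracts neutrophils, ranked 4154. Ccl2, Ccl7 and Cxcl3 nonetheless carried BMDM H3K18la. Ccl3 and Ccl4 ranked higher in BMDM, with ranks of 686 (5.41%) and 1871 (14.8%) against 9327 (38.5%) and 16456 (67.8%) in PIM. Around Ccl2, 3 shared and 4 PIM-only distal regions were called. Among 15 monocyte genes, 9 were called in both, and Ccr2 and Fn1 were called in PIM and not in BMDM.

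MHC class II was the list with the largest share of BMDM-only promoters. Of 10 genes, 6 were BMDM only (Cd74, H2-Aa, H2-Ab1, H2-DMb2, H2-Oa and H2-Ob), 2 PIM only (Ciita and H2-DMb1), 1 both (H2-DMa) and 1 neither (H2-Eb1), where 0.769% of all coding genes were BMDM only. Most of these peaks were near the end of the lists. H2-Aa ranked 12649 of 12671 in BMDM, H2-Ob 12255, H2-DMb2 11249, H2-Ab1 10466 and H2-Oa 9919. Cd74, the invariant chain that escorts MHC class II molecules, was the exception at rank 1302, and within the 5000 strongest peaks it was the 1 BMDM-only gene of the list (0 by maximum signal). Ciita, the gene of the transactivator of MHC class II, ranked 21780 of 24257 in PIM. H2-DMa ranked 120 in BMDM and 57 in PIM. Of the 10 genes, 9 carried PIM H3K4me3 and 6 carried PIM H3K18la, so the loci were not devoid of active marks in PIM. The promoter of H2-Aa (RefSeq, GRCm38.p6) holds a CCAAT box, the Y element of MHC class II promoters, on the opposite strand (capitals). Of the 10 genes 7 had a promoter in RefSeq's table, of which 6 held CCAAT on either strand and that of H2-DMa did not, against 38.4% of 15687 promoters.
H2-Aa, chr17:34287774-34288073, minus strand: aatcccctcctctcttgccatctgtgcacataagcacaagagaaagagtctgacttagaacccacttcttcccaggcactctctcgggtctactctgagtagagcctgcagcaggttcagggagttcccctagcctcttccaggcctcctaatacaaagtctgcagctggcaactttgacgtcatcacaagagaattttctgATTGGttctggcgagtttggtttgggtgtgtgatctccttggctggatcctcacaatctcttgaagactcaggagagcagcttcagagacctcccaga

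Genes of the hypoxia response ranked higher in PIM than in BMDM, as did called genes in general. The median rank of the hypoxia genes called was 18.6% of the list in PIM and 44.8% in BMDM, against 26.8% and 41.7% for all called genes. Of 21 genes, 14 were called in both, 3 in PIM only (Ankrd37, Ddit4 and Pdk1), 0 in BMDM only and 4 in neither. The PIM-only share of 14.3% lies near the 15.6% of all coding genes. With the 5000 strongest peaks 6 were PIM only (Ankrd37, Bnip3l, Hif1a, Ndrg1, P4ha1 and Slc2a1) and 1 BMDM only (Hk2), and by maximum signal 3 and 1, where 7.37% and 8.46% of all coding genes were PIM only by these rules. By maximum signal P4ha1 was the BMDM-only gene. Slc2a1, the glucose transporter GLUT1, ranked 3916 in PIM (16.1%) and 9857 in BMDM (77.8%). It was nearest to 6 PIM-only distal regions and no other, all 6 with PIM H3K18la and 3 with BMDM H3K18la. Ndrg1 ranked 1051 (4.33%) and 5515 (43.5%), and Hif1a, the oxygen-regulated subunit itself, 873 (3.60%) and 5007 (39.5%).

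**Figure D4:**
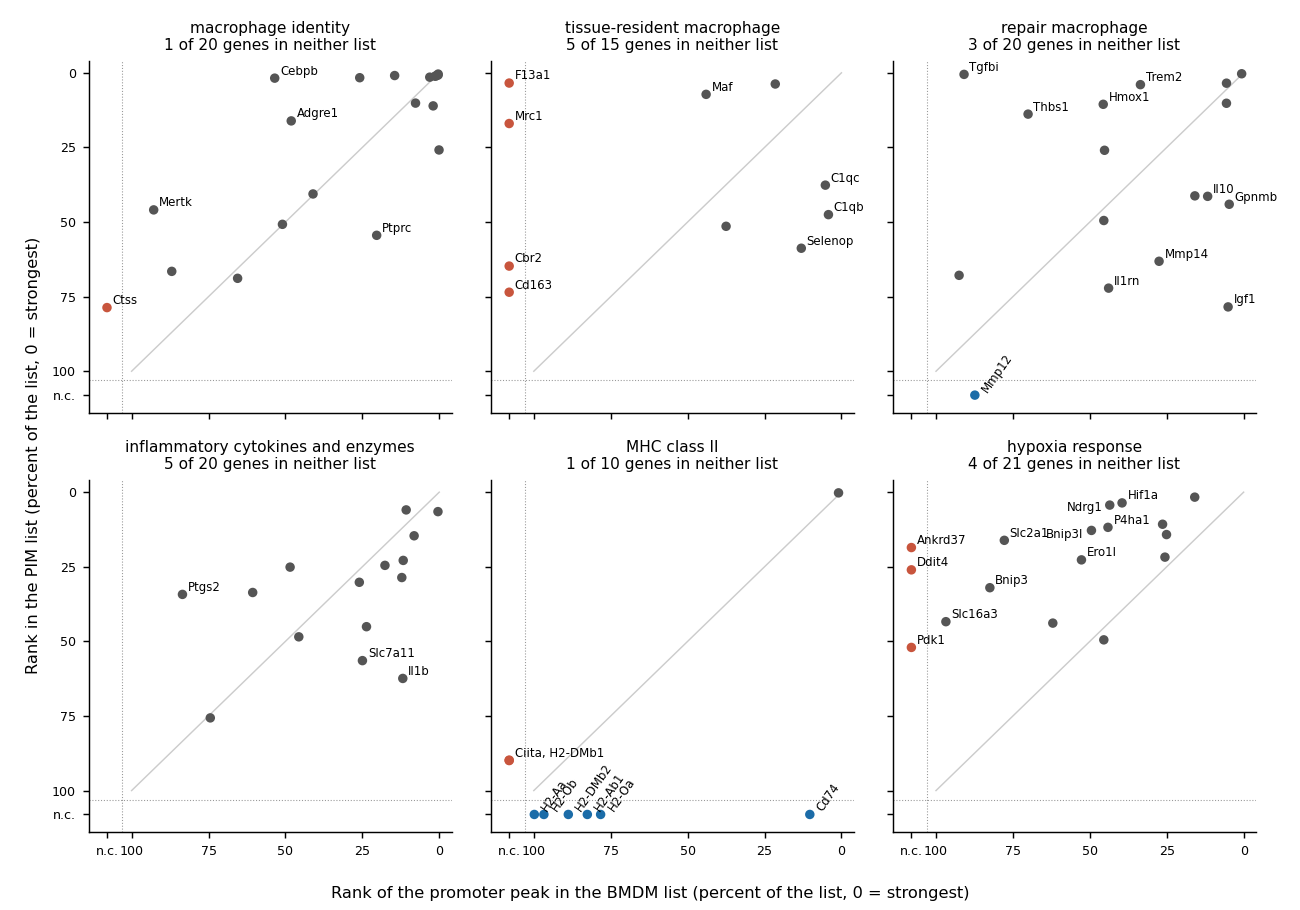
Rank of the strongest promoter peak of each gene in the BMDM list (x axis) and in the PIM list (y axis), in percent of the list, with 0 the strongest and both axes drawn so that strong promoters are at the top right, for 6 gene lists. Genes called in 1 list only are drawn at n.c. (not called) on the other axis, blue for BMDM only and red for PIM only, and the line marks equal percentiles. The called hypoxia genes lie mostly above the line, Tgfbi and Igf1 lie in opposite corners, and 5 of the 6 BMDM-only MHC class II genes lie near the weak end.

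The other lists showed smaller divisions, to be read against 34.1% of all coding genes called in both, 15.6% in PIM only and 0.769% in BMDM only. Of 20 cell cycle genes, 8 were called in both and 8 in PIM only (40.0%, where 15.6% of all coding genes were PIM only), among them Ccna2 (rank 7759) and Ccne1 (6175). With the 5000 strongest peaks 3 were BMDM only and 0 PIM only, where 4.07% and 7.37% of all coding genes were. At that share of PIM-only genes a count of 0 among 20 is no result about the list. Mki67 was called in both, at 1414 in BMDM and 8387 in PIM. Lysosome and phagocytosis genes were called in both in 16 of 20 cases, with Ctsb at 13 and 208 and Ctsz at 68 and 99. Atp6v0d2 was called in BMDM only, and 2 genes (10.0%) in PIM only. Of 20 cholesterol and lipid genes, 13 were called in both and Lpl, Pparg, Scd2 and Sqle in PIM only. Nr1h3, which encodes the sterol receptor LXR-alpha, ranked 350 in BMDM (2.76%) and 7910 in PIM (32.6%). Of 19 interferon response genes, 12 were called in both, Ifit3 and Oasl2 in BMDM only and Cxcl10, Ddx58, Gbp5 and Ifit1 in PIM only. Of 12 Toll-like receptor genes and adaptors 10 were called in both and Tlr5 in PIM only, and Tlr2 ranked 219 (1.73%) and 6516 (26.9%). Of 14 glucocorticoid response genes 8 were called in both, 1 in BMDM only, 1 in neither and Cd163, Ddit4, Fkbp5 and Zbtb16 in PIM only. Per1 ranked 57 in BMDM and 1711 in PIM. Integrin and adhesion genes were called in both in 13 of 19 cases, and Itga1, Itga6, Itgb7 and Selplg in PIM only. All 10 housekeeping genes were called in both.

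**Figure D5:**
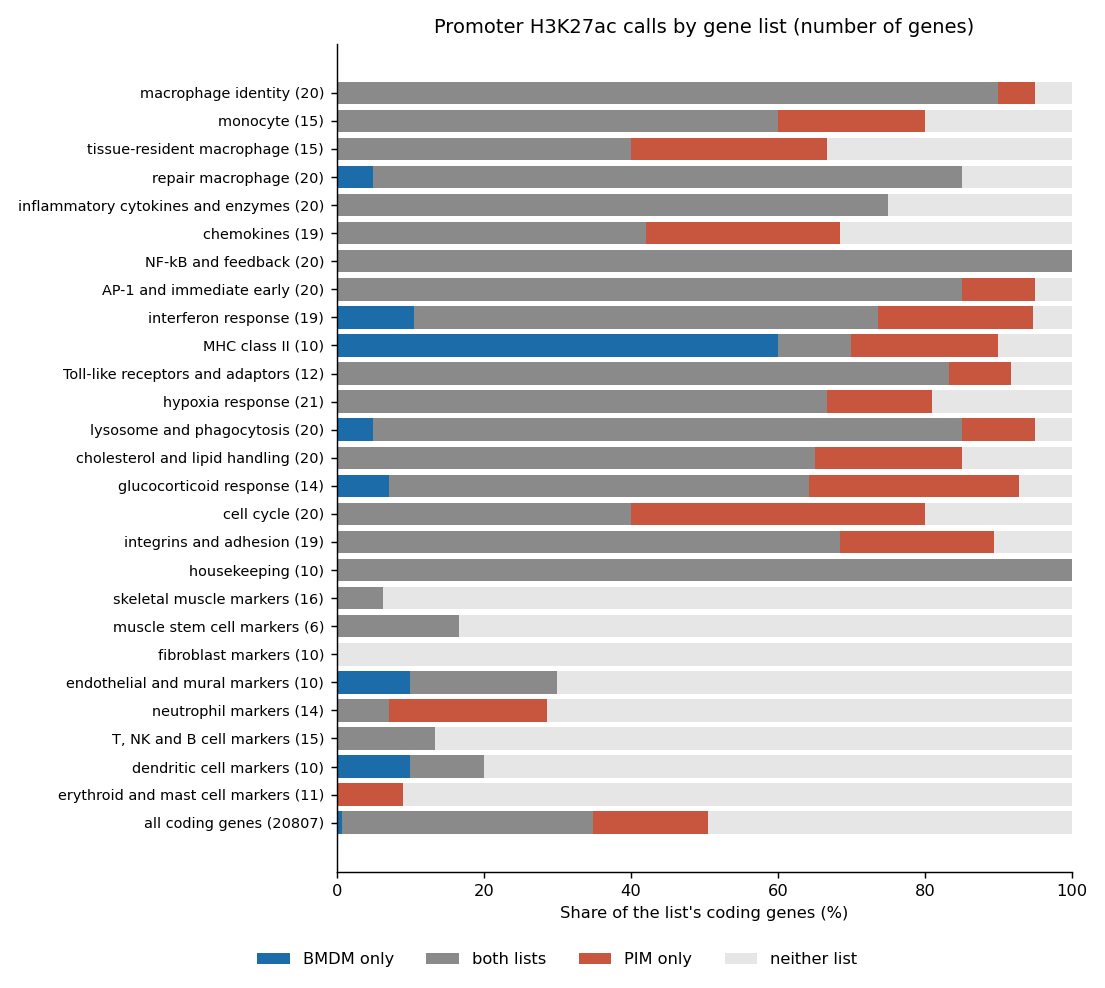
Share of the coding genes of each list (x axis, %) whose promoter was called in BMDM only, in both lists, in PIM only or in neither list, with the number of genes behind each list name and all 20807 coding genes at the bottom. NF-kB and housekeeping genes are called in both lists throughout, the MHC class II list has 60.0% BMDM-only genes against 0.769% of all genes, and the muscle, fibroblast and lymphocyte markers are mostly in neither list.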

How the data were processed

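CUT&Tag for H3K27ac was analysed in 2 libraries, 1 of BMDM and 1 of PIM. The authors trimmed reads with Trim Galore 0.6.6, aligned them to mm10 with Bowtie2 2.4.4, computed fragment coverage with bedtools 2.30 and called peaks with SEACR 1.3 in stringent mode, keeping the top 1% of regions with no control track. Versions are those of the submitters' processing notes. Each deposited peak list gives the total and maximum signal, as summed and highest fragment coverage. All signal values were whole numbers and so were not scaled for depth. Signals are therefore given for each list on its own, and peaks are compared by rank. Read numbers per library were not analysed here. Whether duplicates were removed is not given in the sources used here.

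Lists were merged on chromosomes 1 to 19, and 1 bp of overlap counted as shared. Promoters were 2000 bp on either side of each TSS of 134417 transcripts of 51229 genes (GENCODE vM21). Coding genes were counted, and distal regions were counted for the gene with the nearest coding TSS within 100 kb. The strongest regions are named by the nearest coding gene at any distance. Motifs were searched in 500-base windows of mm10. Shares carry Wilson intervals and differences Newcombe intervals, and no test was made, as each cell type had 1 library. Named genes were those of the 26 lists, the 10 genes with the largest promoter signal in 1 list's 5000 strongest peaks and no peak of the other list, the 10 genes nearest to the most BMDM-only or PIM-only distal regions, and the 5 strongest distal regions of each class. Any other region is said to be chosen after its values were seen where it is printed, and the Fyb and Igf1 regions were such. A few members of the lists are not reported here by name. The members and lists were chosen with earlier results of these data known. Alternatives were the 5000 strongest peaks by total or maximum signal, the PIM list held to the BMDM number of peaks, an overlap of 50% of the shorter peak and promoters of 1000 bp on either side. Code was tested on simulated peaks. Python 3.11.15, numpy 2.4.6, pandas 2.3.3, scipy 1.17.1, matplotlib 3.10.9 and bedtools 2.31.1 were used.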

Additional observations from a re-analysis of the deposited data

How the results depend on the processing

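Of 52 values recomputed under 6 alternatives, 30 stayed within the interval of the reported value (counts within 1.5 times) and 22 moved. None of these differences changed sign. Some motif differences, which are not among them, did so among the 5000 strongest peaks. At distal regions these were HIF (3.00 points), CAGCTG (0.0931 points) and the ETS motif CCGGAAGT (-0.544 points in the full lists and 0.938 points). At promoter regions they were HIF (-0.737 and 1.225 points) and CAGCTG (-1.19 and 3.62 points). In addition 2 orders turned. The share of BMDM peaks with a partner was above that of PIM peaks in the full lists and below it with either set of 5000 strongest peaks (50.3% against 53.9% by maximum signal) or with the PIM list held to the BMDM number. PIM-only distal regions outnumbered BMDM-only ones in the full lists (6034 against 1332), whereas BMDM-only ones were more numerous by total signal (1094 against 381), by maximum signal (1237 against 600) and with the PIM list reduced (2846 against 1256). With the 5000 strongest peaks by total signal, the BMDM peaks with a PIM partner were 58.8%, the PIM peaks with a BMDM partner 62.7%, BMDM-only genes 847, PIM-only genes 1534, genes called in both 2605, the H3K18la difference in PIM-only distal regions 16.3 points and the GAS difference 17.6 points. With the 5000 strongest by maximum signal, promoter minus distal sharing 16.4 points, BMDM-only genes 1154, PIM-only genes 1761, genes called in both 2117 and the PIM-only H3K18la difference 21.2 points. With the PIM list held to the BMDM number of peaks, the shares were 66.7% and 73.9%, promoter minus distal sharing 30.1 points, BMDM-only genes 771, PIM-only genes 1678, the BMDM-only H3K18la difference -5.90 points and the PIM-only one 41.2 points. An overlap of 50% of the shorter peak gave a PIM share of 53.7%, and promoters of 1000 bp on either side gave a promoter minus distal difference of 26.5 points. Fewer peaks enter the first 3 alternatives by construction, and other causes were not tested. Leaving out the 31 BMDM and 41 PIM peaks called in all 8 other lists was chosen after seeing the data and moved none of the 9 values. No paired analysis was possible because each cell type had 1 library. Depth was not analysed here, so a missing peak shows only that none was called.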
